A study of Homo sapiens with 4 samples.

Results

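The genes of WNT signalling at the cell surface were read in nuclei of enteric ganglioids: all WNT ligands, Frizzled (FZD) receptors, the co-receptors ROR1, ROR2, LRP5, LRP6 and RYK, the R-spondins (RSPO) and their LGR receptors, the secreted inhibitors of the SFRP and DKK families, and the feedback and effector genes AXIN2 and LEF1. Members were chosen by gene symbol alone, which gave 51 of the 36601 features in the matrices: 19 ligands, 10 FZD receptors, 5 co-receptors, 7 RSPO and LGR genes, 8 secreted inhibitors, and AXIN2 with LEF1. Ganglioids are free-floating clusters of neurons and progenitors grown here from the embryonic stem cell line H9, an established human line. The 4 samples are 2 control differentiations and 2 differentiations that received 2 µM PP121 from day 15 to day 20, a compound that blocks a number of receptor tyrosine kinases. All 4 also received CHIR 99021, a GSK3 inhibitor that switches on the beta-catenin branch of WNT signalling, while the neural crest was induced and crestospheres were formed, before day 15. Each sample pools several ganglioids, and every sample comes from this stem cell line, so differences between donors are not covered. The deposited annotation puts replicate 1 at day 42 and replicate 2 at day 38, for control and PP121 alike, so the day and the differentiation run cannot be told apart. The study's text names a common day for all samples instead, and this conflict was not settled here, so day 38 and day 42 are the deposited dates.

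WNT ligands are lipid-modified secreted proteins that bind FZD receptors. With LRP5 or LRP6 they stop the breakdown of beta-catenin, which then works with TCF and LEF1 on target genes such as AXIN2, while ROR1, ROR2 and RYK carry signals of WNT5A-like ligands to the cytoskeleton and cell polarity. R-spondins act through LGR4, LGR5 and LGR6 to keep FZD receptors on the cell surface, SFRP proteins capture ligands, and DKK proteins of the DKK1 type block LRP5 and LRP6. In the embryo WNT signals from the dorsal neural tube help to induce the neural crest, from which the enteric nervous system comes.

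Nuclei were profiled by droplet sequencing of 3′ ends, and the value of a gene is its number of unique molecular identifiers (UMIs). The annotated nuclei numbered 2912 to 4587 per sample with 23348045 to 34123759 UMIs, and at most 8 cell barcodes were shared by any pair of samples. UMIs were summed over the nuclei of an annotated class in each sample and are given as CPM, the gene's UMIs relative to all UMIs of that sum. The enteric neurons numbered 976 to 2301 per sample, progenitor 1 numbered 501 to 1197, and progenitor 2 numbered 683 to 1155. Mesenchymal nuclei were few on day 42 (40 in control and 33 in PP121 replicate 1) and many on day 38 (408 in control and 422 in PP121 replicate 2), so their CPM are given for day 38 only. A class annotated as unknown held 60 to 211 nuclei per sample, and 9 to 37 epithelial nuclei per sample were not read. The 7 enteric neuron markers summed to 907 to 1151 CPM in the neurons and to 266 to 468 CPM in both progenitor classes. The 7 markers of neural crest or glial progenitors summed to only 13.5 to 49.0 CPM in the progenitor classes, where the 5 neuroepithelial markers (SOX2, PAX6, PAX3, HES5 and FABP7) summed to 356 to 452 CPM in progenitor 1 and to 833 to 980 CPM in progenitor 2. The progenitor names are therefore used as deposited. The 9 mesenchymal markers summed to 2621 to 2932 CPM in the mesenchymal class.

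All 51 members had at least 1 UMI, and together they held 177811 UMIs, or 0.153% of the 116292617 annotated UMIs. The ligand WNT10A, with 7 UMIs, and the inhibitor DKK1, with 14, were below 20 UMIs over all nuclei, and 23 members reached 1000. The classes were made by clustering these nuclei, so levels by class are described without a test. Among neurons, both progenitor classes and mesenchymal nuclei, the mean CPM was highest in progenitor 2 for 23 of the 49 members with at least 20 UMIs, in mesenchymal nuclei for 17, in neurons for 5 and in progenitor 1 for 4. The 5 members highest in neurons were the ligands WNT2B, WNT4, WNT5B, WNT8A and WNT8B. The 4 highest in progenitor 1 were LGR4, LRP6, RYK and SFRP5. The unknown class was left out of this ranking. There WNT2B, WNT8A and WNT8B averaged 160, 5.06 and 6.42 CPM, above their 83.3, 3.53 and 2.42 CPM in neurons. WNT4 and WNT5B averaged less there than in neurons. Of the members ranked highest in progenitor 2 or mesenchymal nuclei, some averaged more in the unknown class and others less. WNT5A, FZD6, SFRP4 and AXIN2 were among those that averaged more.

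**Figure D1:**
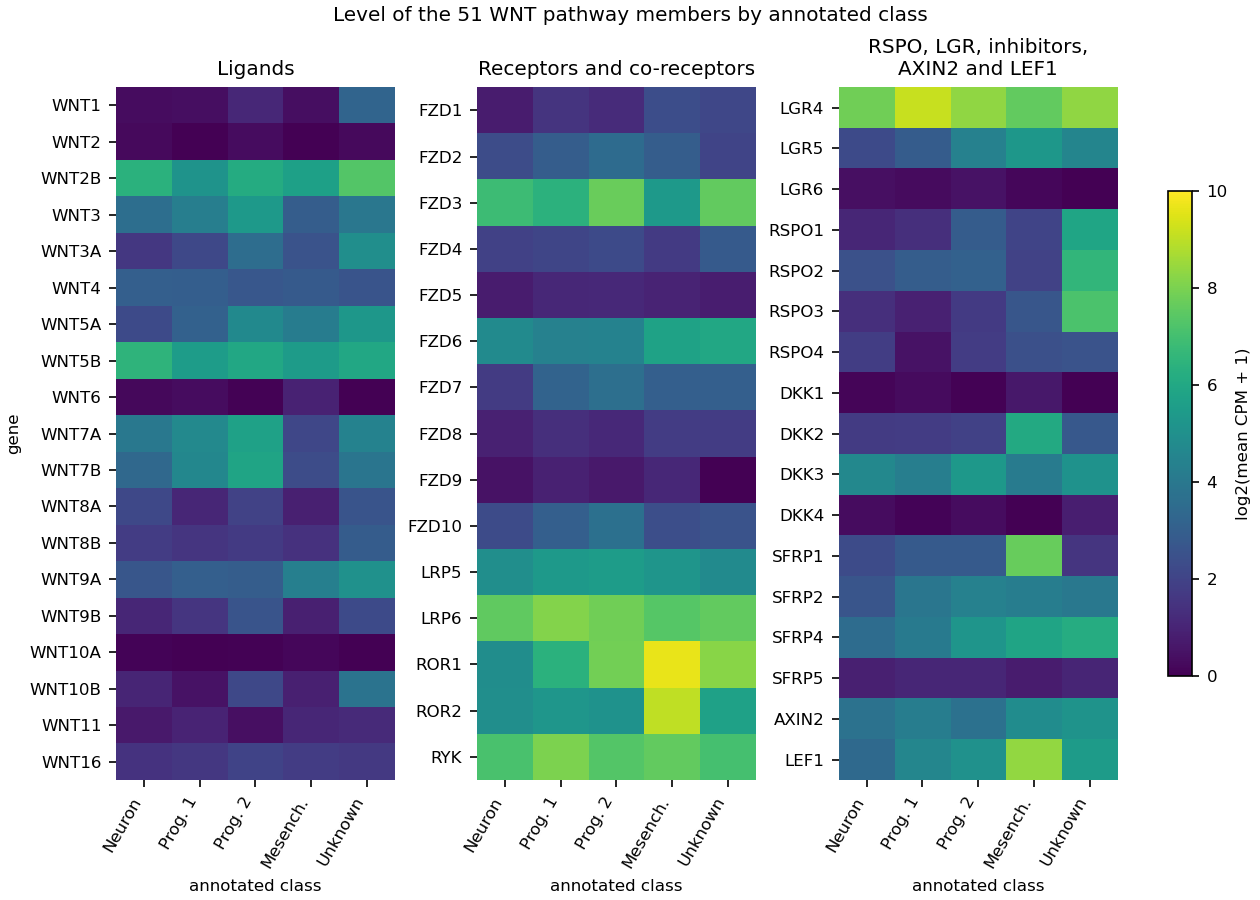
Mean level of each of the 51 members (columns of cells are annotated classes, colour is log2 of mean CPM plus 1, over 4 samples, or over the 2 day 38 samples for mesenchymal nuclei). SFRP1, DKK2, LEF1, ROR1 and ROR2 are brightest in the mesenchymal class, and RSPO1, RSPO2 and RSPO3 in the unknown class; colours compare classes within a gene and not genes with each other, since CPM were not divided by gene length.

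Among the ligands, WNT2B and WNT5B were read in every class. WNT2B averaged 83.3 ± 15.7 CPM (SD, n = 4) in neurons, 33.7 ± 8.27 CPM in progenitor 1 and 69.3 ± 8.72 CPM in progenitor 2, so the ranges of neurons and progenitor 2 overlapped and progenitor 1 lay below both. WNT5B averaged 89.0 ± 14.3 CPM in neurons, 45.1 ± 7.20 CPM in progenitor 1 and 63.0 ± 4.08 CPM in progenitor 2, with no overlap between these classes, of which progenitor 1 was the lowest. WNT7A and WNT7B, ligands of developing neural tissue, were highest in progenitor 2. There WNT7B stood at 55.6 and 63.7 CPM in control replicates 1 and 2 and at 51.8 and 55.4 CPM in PP121 replicates 1 and 2, against 7.60 to 12.7 CPM in neurons. WNT5A, the ligand usually paired with ROR2, ranged from 12.8 to 31.6 CPM in progenitor 2 and from 2.06 to 5.23 CPM in neurons.

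Of the FZD receptors, FZD3 averaged 212 ± 25.2 CPM in progenitor 2, 115 ± 18.5 CPM in neurons and 84.9 ± 20.95 CPM in progenitor 1, and only the ranges of the last pair overlapped. FZD6 stood at 51.7 and 55.9 CPM in the mesenchymal nuclei of day 38, above its 17.8 to 40.7 CPM in neurons. FZD10 was highest in progenitor 2, at 11.2 and 8.51 CPM in control and 16.1 and 11.4 CPM in PP121, and stood at 2.89 to 4.91 CPM in neurons.

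The co-receptors divided the classes in opposite ways. LRP6, which with LRP5 carries the beta-catenin branch, averaged 280 ± 65.1 CPM in progenitor 1, 229 ± 19.6 CPM in progenitor 2 and 187 ± 15.9 CPM in neurons, with the ranges of progenitor 1 and progenitor 2 overlapping. ROR1, a receptor tyrosine kinase-like molecule with little kinase activity of its own, stood at 917 and 696 CPM in mesenchymal nuclei of control and PP121 replicate 2. In progenitor 2 ROR1 ranged from 167 to 334 CPM, in progenitor 1 from 63.4 to 95.1 CPM and in neurons from 16.3 to 46.8 CPM, without overlap between these classes. ROR2, its close relative and a WNT5A receptor, stood at 429 and 621 CPM in the same mesenchymal nuclei and at 6.23 to 81.1 CPM over neurons and progenitors, where the classes overlapped fully.

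ROR1, ROR2 and the ligand WNT3 carry the PP121 comparison given further on, and their promoters are shown because the data bear on their RNA levels. Gene bodies in GENCODE 29 on GRCh38 are chr1:63774022-64181498 (plus strand) for ROR1, chr9:91563091-91950162 (minus strand) for ROR2 and chr17:46762506-46833154 (minus strand) for WNT3. Sequences run from 250 bases before the RefSeq start to 50 bases after it, 5′ to 3′ on the gene's strand, on GRCh38.p14. Capitals mark a GC box, GGGCGG or its reverse complement CCGCCC. The windows are chr1:63773767-63774066 for ROR1, chr9:91950179-91950478 for ROR2 and chr17:46818643-46818942 for WNT3. The WNT3 window lies inside the GENCODE gene body, downstream of its 5′ end, so it surrounds an internal start and not the outermost one.
ROR1: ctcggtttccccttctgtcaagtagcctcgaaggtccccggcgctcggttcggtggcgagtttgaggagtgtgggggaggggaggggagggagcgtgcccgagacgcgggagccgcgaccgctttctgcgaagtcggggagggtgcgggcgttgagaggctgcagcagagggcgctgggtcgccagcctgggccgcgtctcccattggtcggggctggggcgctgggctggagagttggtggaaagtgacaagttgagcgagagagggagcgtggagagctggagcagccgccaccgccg
ROR2: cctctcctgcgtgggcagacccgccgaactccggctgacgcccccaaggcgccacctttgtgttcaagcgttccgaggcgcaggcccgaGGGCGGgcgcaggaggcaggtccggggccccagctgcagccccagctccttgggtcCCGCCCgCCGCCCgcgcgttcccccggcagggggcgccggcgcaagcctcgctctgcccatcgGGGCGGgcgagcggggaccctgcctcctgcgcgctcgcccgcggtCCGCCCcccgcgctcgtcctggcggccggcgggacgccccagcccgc
WNT3: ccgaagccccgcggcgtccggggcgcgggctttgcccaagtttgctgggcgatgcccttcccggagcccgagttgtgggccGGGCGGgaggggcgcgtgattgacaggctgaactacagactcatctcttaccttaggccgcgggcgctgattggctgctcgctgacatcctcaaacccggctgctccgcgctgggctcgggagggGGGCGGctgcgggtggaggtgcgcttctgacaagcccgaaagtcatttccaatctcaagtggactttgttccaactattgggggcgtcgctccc
The ROR2 window held 5 GC boxes and 42 CpG, the WNT3 window 2 and 28, and the ROR1 window 0 and 29. None of the 3 windows held CTTTGA or its reverse complement TCAAAG, a form of the letters bound by TCF and LEF factors. It was the only form searched, and the form CTTTGT occurs in the WNT3 and ROR2 windows. Of 35116 RefSeq promoter windows, 12.9% held CTTTGA or TCAAAG and 45.0% held a GC box. Of the 35 members with a window, 1 held CTTTGA or TCAAAG (DKK1) and 29 (82.9%) held a GC box. The median number of CpG was 28 for members and 14 over all windows. A match of letters is a description of the window and says nothing of binding here.

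Among the RSPO and LGR genes, LGR4 had its highest levels in progenitor 1, at 315 to 757 CPM, and ranged from 176 to 278 CPM in neurons. LGR5, a marker of stem cells in the gut epithelium, was highest in the mesenchymal nuclei of PP121 replicate 2, at 54.1 CPM, and stood at 22.7 CPM in those of control replicate 2. Few nuclei carried these values: 3 nuclei held 57 of 82 UMIs in control replicate 2 and 65 of 188 in PP121 replicate 2. The secreted inhibitors SFRP1 and DKK2 were largely mesenchymal: SFRP1 stood at 191 and 213 CPM and DKK2 at 74.9 and 59.0 CPM in the day 38 mesenchymal nuclei of control and PP121, while both stayed at or below 13.5 CPM in neurons and progenitors. SFRP4 averaged 36.0 ± 10.8 CPM in progenitor 2 and 57.0 ± 8.25 CPM in mesenchymal nuclei (n = 2). LEF1, the transcription factor that pairs with beta-catenin, stood at 216 and 454 CPM in mesenchymal nuclei, against 8.26 to 10.2 CPM in neurons. AXIN2, which limits beta-catenin and is itself switched on by it, stood at 20.7 and 34.9 CPM in mesenchymal nuclei and at 11.3 to 15.6 CPM in neurons.

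The first comparison asked which members differed between PP121 and control ganglioids within a class, by edgeR's quasi-likelihood test on the sums with Benjamini-Hochberg adjustment over all genes tested. Without a block none of the members passed an adjusted p of 0.05: 0 of 42 tested in neurons, 0 of 31 in progenitor 1 and 0 of 39 in progenitor 2, and percent called was 0 over all genes in each. At an unadjusted p under 0.05 there were 8, 0 and 8 members, among 2549, 621 and 1774 of the 21243, 16083 and 18885 genes tested, and DESeq2's Wald test called 1, 0 and 3 members among 87, 1 and 96 genes. With the replicate number as a block, which compares samples of the same day and leaves 1 residual degree of freedom per gene before the spread is shared across genes, 9 members passed in neurons, 1 in progenitor 1 and 9 in progenitor 2. The share of all genes called by that fit was 14.8% in neurons, 3.69% in progenitor 1 and 6.71% in progenitor 2. Of those members 7 were higher in PP121 in neurons (7.97% of all genes), 1 in progenitor 1 (2.90%) and 8 in progenitor 2 (4.38%), and 2 (6.86%), 0 (0.783%) and 1 (2.32%) were lower. The median log2 fold change of the members tested with the block was 0.17, 0.28 and 0.16 in neurons, progenitor 1 and progenitor 2, and that of all genes was -0.00551, -0.00204 and -0.00445. With each sample left out of the fit without the block, the median of the members ran from 0.08 (without PP121 replicate 2) to 0.39 (without PP121 replicate 1) in neurons, from 0.021 to 0.51 without the same samples in progenitor 1, and from 0.15 (without control replicate 1) to 0.36 (without control replicate 2) in progenitor 2. The PP121 and control samples did not overlap for 17, 10 and 20 members, and for 45.1%, 28.0% and 40.0% of all genes. PP121 lay above for 10, 9 and 16 of these (19.7%, 16.8% and 18.2% of all genes) and below for 7, 1 and 4 (25.4%, 11.2% and 21.8%). All folds and adjusted p-values that follow for PP121 are from edgeR with the block, on the log2 scale ± SE, and "rose" or "fell" refers to that fit; without the block the smallest adjusted p of any member in these classes was 0.174.

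Of the WNT ligands, 4 of 15 tested rose in neurons, 0 of 10 in progenitor 1 and 4 of 14 in progenitor 2, and none fell. WNT3, a ligand of the beta-catenin branch, stood in neurons at 5.59 and 9.92 CPM in control replicates 1 and 2 and at 13.8 and 15.8 CPM in PP121 replicates 1 and 2. In progenitor 2 WNT3 stood at 24.9 and 31.1 CPM in control and at 57.5 and 53.7 CPM in PP121. The groups did not overlap in either class, and WNT3 rose by 1.03 ± 0.190 in neurons (adjusted p = 0.000406) and by 1.04 ± 0.149 in progenitor 2 (adjusted p = 3.77e-07). In progenitor 1 WNT3 stood at 11.6 and 21.6 CPM in control and 18.4 and 21.0 CPM in PP121, with the PP121 values inside the control range.

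WNT3A, a ligand of the dorsal neural tube, stood in progenitor 2 at 2.13 and 2.22 CPM in control (19 and 12 UMIs) and at 10.5 and 28.4 CPM in PP121. PP121 replicate 2 of day 38 was the highest, and the ratio of PP121 to control was 4.93 on day 42 and 12.8 on day 38. WNT3A rose by 2.99 ± 0.300 (adjusted p = 8.78e-12). In neurons WNT3A stood at 1.32 and 2.16 CPM in control and 1.96 and 2.86 CPM in PP121, which overlap.

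WNT10B, another ligand of the beta-catenin branch, rested on few UMIs. In progenitor 2 it stood at 1.23 and 0.740 CPM in control (11 and 4 UMIs) and at 5.17 and 6.95 CPM in PP121 (41 and 45 UMIs), and it rose by 2.53 ± 0.443 (adjusted p = 3.04e-05). WNT10B stood in control neurons at 0.422 and 0.451 CPM (8 and 5 UMIs) and in PP121 neurons at 1.49 and 1.94 CPM (25 and 17 UMIs), and rose by 1.95 ± 0.484 (adjusted p = 0.00634). The groups were apart in both classes, with both PP121 samples above both controls. WNT9A stood in progenitor 2 at 4.59 and 3.52 CPM in control and 9.84 and 8.96 CPM in PP121 and rose by 1.23 ± 0.299 (adjusted p = 0.00363). WNT9A and WNT3A lie next to each other on chromosome 1, 59152 bases apart, and WNT10B lies 6689 bases from WNT1 on chromosome 12.

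WNT2B and WNT5B, the ligands with the most CPM within neurons, rose there by less. WNT2B stood at 72.3 and 67.7 CPM in control neurons and 93.8 and 99.5 CPM in PP121 neurons, and rose by 0.50 ± 0.103 (adjusted p = 0.00122). WNT5B stood at 71.4 and 85.3 CPM in control and 105 and 94.0 CPM in PP121, and rose by 0.40 ± 0.107 (adjusted p = 0.0122). Both PP121 samples lay above both controls for each gene. WNT2B overlaps ST7L and WNT5B overlaps FBXL14 on the opposite strand, and whether strand was used in counting is not given in the sources used here, so their reads may include those of the partner gene.

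**Figure D2:**
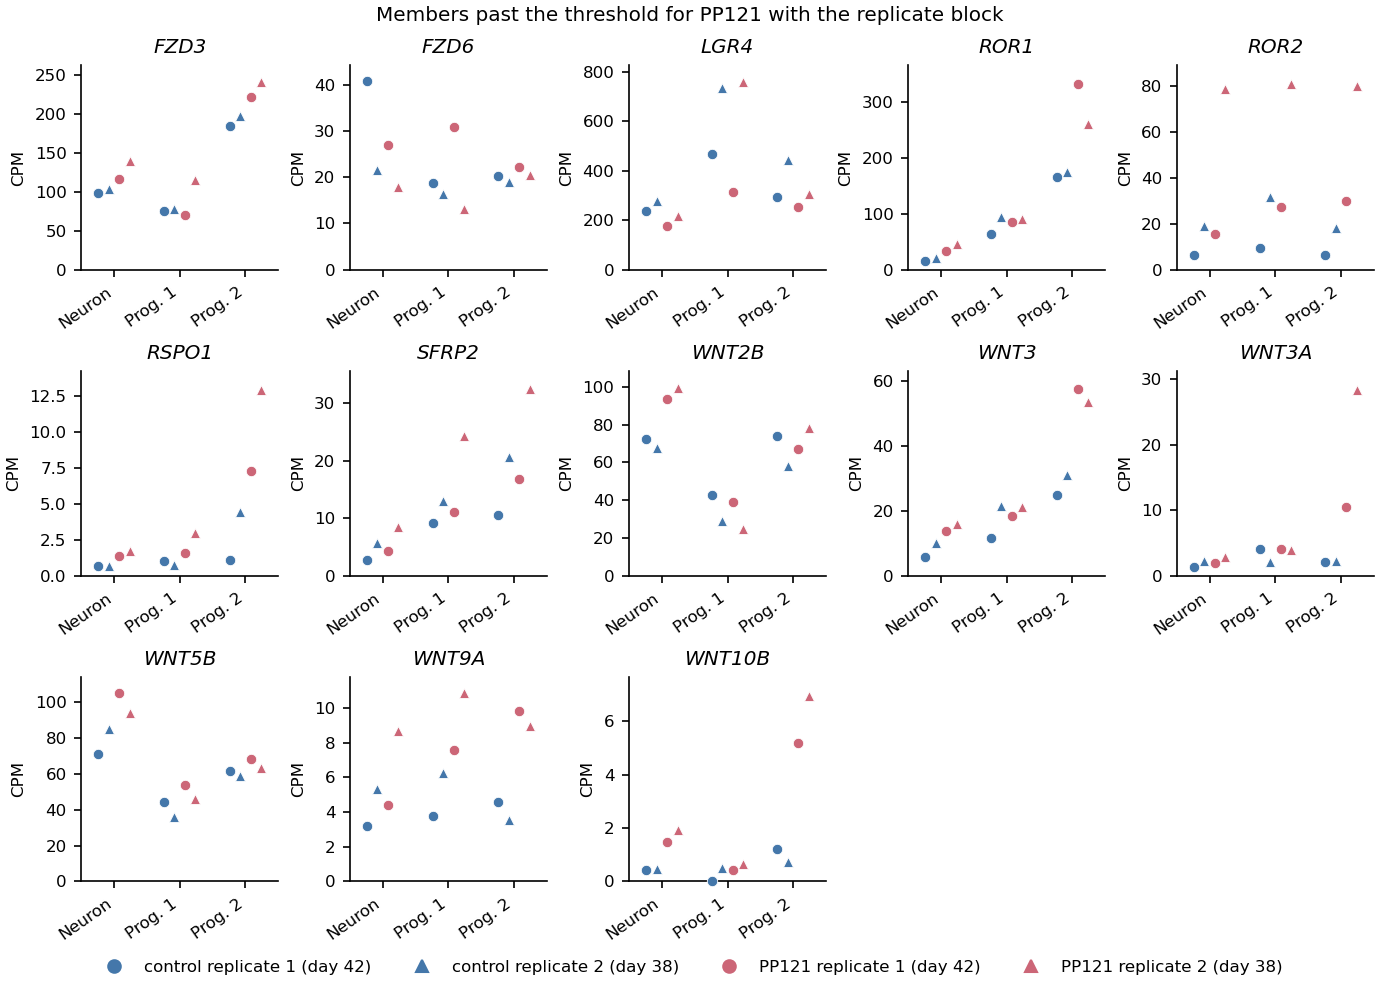
CPM of the 13 members past the threshold in any class with the replicate block, by class (blue control, red PP121, circles replicate 1 of day 42, triangles replicate 2 of day 38, 1 point per sample, linear axes from 0). ROR2 is highest in PP121 replicate 2 in all 3 classes, at 78.9 to 81.1 CPM, and WNT3A is above 5 CPM only in progenitor 2 of the PP121 samples.

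Of the FZD receptors, FZD3 and FZD6 passed, both in neurons. FZD3 stood in neurons at 98.7 and 104 CPM in control and 117 and 140 CPM in PP121 and rose by 0.38 ± 0.0969 (adjusted p = 0.00844). FZD6 stood in neurons at 40.7 and 21.6 CPM in control and 27.0 and 17.8 CPM in PP121, so the groups overlapped, and within each day the PP121 sample was the lower. With the block it fell by 0.42 ± 0.135 on the log2 scale (adjusted p = 0.0335). This log2 fold change was 0.069 when control replicate 1, the highest sample, was left out of the fit without the block. The other 6 of 8 FZD receptors tested in neurons, and all 7 tested in progenitor 2, did not pass.

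Among the co-receptors, ROR2 was higher in PP121 in all 3 classes. It stood in neurons at 6.23 and 18.8 CPM in control replicates 1 and 2 and at 15.4 and 78.9 CPM in PP121. In progenitor 1 ROR2 stood at 9.35 and 31.9 CPM in control and 27.3 and 81.1 CPM in PP121. In progenitor 2 it stood at 6.26 and 17.9 CPM in control and at 29.9 and 80.1 CPM in PP121. The groups overlapped in neurons and progenitor 1, where control replicate 2 lay above PP121 replicate 1, and were apart in progenitor 2. On day 42 the ratio of PP121 to control was 2.48, 2.93 and 4.77 in neurons, progenitor 1 and progenitor 2, and on day 38 it was 4.19, 2.55 and 4.47. ROR2 rose by 1.78 ± 0.156 in neurons (adjusted p = 7.78e-09), by 1.41 ± 0.235 in progenitor 1 (adjusted p = 8.13e-07) and by 2.22 ± 0.171 in progenitor 2 (adjusted p = 2.86e-16). It was the single member past the threshold in progenitor 1.

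ROR1 followed in neurons and progenitor 2 but did not pass in progenitor 1. In neurons ROR1 stood at 16.3 and 20.9 CPM in control and 32.7 and 46.8 CPM in PP121, and rose by 1.12 ± 0.129 (adjusted p = 7.61e-07). In progenitor 2 it stood at 167 and 175 CPM in control and 334 and 261 CPM in PP121, and rose by 0.82 ± 0.119 (adjusted p = 4.32e-07). The groups were apart in both. In progenitor 1 ROR1 stood at 63.4 and 95.1 CPM in control and at 85.9 and 90.3 CPM in PP121, with both PP121 values inside the control range. ROR1 overlaps the antisense gene ROR1-AS1 on the opposite strand. LRP5, LRP6 and RYK did not pass in any class.

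Both ROR genes are strong in mesenchymal nuclei, so the 9 mesenchymal markers were read in the same sums. They summed in neurons to 15.7 and 48.6 CPM in control and to 12.6 and 54.3 CPM in PP121, and in progenitor 2 to 30.3 and 80.5 CPM in control and to 40.1 and 78.1 CPM in PP121, all 9 with UMIs in each. In progenitor 1 they summed to 35.1 and 65.7 CPM in control and to 25.2 and 90.3 CPM in PP121. Their part in the ROR1 and ROR2 values was not tested. Part of the neuron class also differed between treatments: when all annotated nuclei were clustered together without the member genes, 370 of 2301 and 301 of 1250 control neurons fell in the cluster of progenitor 1, against 137 of 2030 and 84 of 976 PP121 neurons. With classes taken from those joint clusters and the block, 8 members passed in neurons, among 1232 of 20992 genes. Of these members 7 were among the 9, and ROR1, ROR2, WNT2B and WNT3 were among them.

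Of the R-spondins, RSPO1 rose in progenitor 2. It stood at 1.12 and 4.44 CPM in control (10 and 24 UMIs) and at 7.32 and 13.0 CPM in PP121, apart from each other, and rose by 2.04 ± 0.334 (adjusted p = 8.42e-06). LGR4, an R-spondin receptor, fell in neurons and progenitor 2. It stood in neurons at 236 and 278 CPM in control and at 176 and 216 CPM in PP121, apart, and fell by 0.35 ± 0.0885 on the log2 scale (adjusted p = 0.00682). In progenitor 2 LGR4 stood at 295 and 444 CPM in control and at 253 and 305 CPM in PP121, which overlap, and fell by 0.35 ± 0.114 (adjusted p = 0.0433). The LGR4 call in progenitor 2 was lost with joint clusters, with DESeq2 and without the nuclei of highest UMIs.

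Of the secreted inhibitors, SFRP2 rose in progenitor 2, from 10.6 and 20.7 CPM in control to 16.9 and 32.4 CPM in PP121. The groups overlapped while each day's PP121 sample was the higher, and the fold was 0.68 ± 0.189 (adjusted p = 0.0133). No DKK gene passed in any class. AXIN2 and LEF1, the members downstream of beta-catenin, did not pass either. Of other feedback targets of the pathway, 1 of 5 tested was called higher in neurons and 1 of 5 in progenitor 2. In progenitor 1, 0 of 4 were called. The shares of all genes called higher were 7.97%, 4.38% and 2.90% in that order. AXIN2 stood in progenitor 1 at 17.7 and 21.1 CPM in control and at 15.5 and 17.4 CPM in PP121. AXIN2 stood in progenitor 2 at 11.7 and 7.59 CPM in control and 13.2 and 16.1 CPM in PP121, a fold of 0.60 ± 0.235 (adjusted p = 0.121), and in neurons at 11.3 and 12.8 CPM in control and 11.3 and 15.6 CPM in PP121, a fold of 0.17 ± 0.172 (adjusted p = 0.573). LEF1 had a fold of -0.13 ± 0.190 in neurons (adjusted p = 0.722), 0.55 ± 0.256 in progenitor 1 (adjusted p = 0.320) and 0.24 ± 0.156 in progenitor 2 (adjusted p = 0.487).

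**Figure D3:**
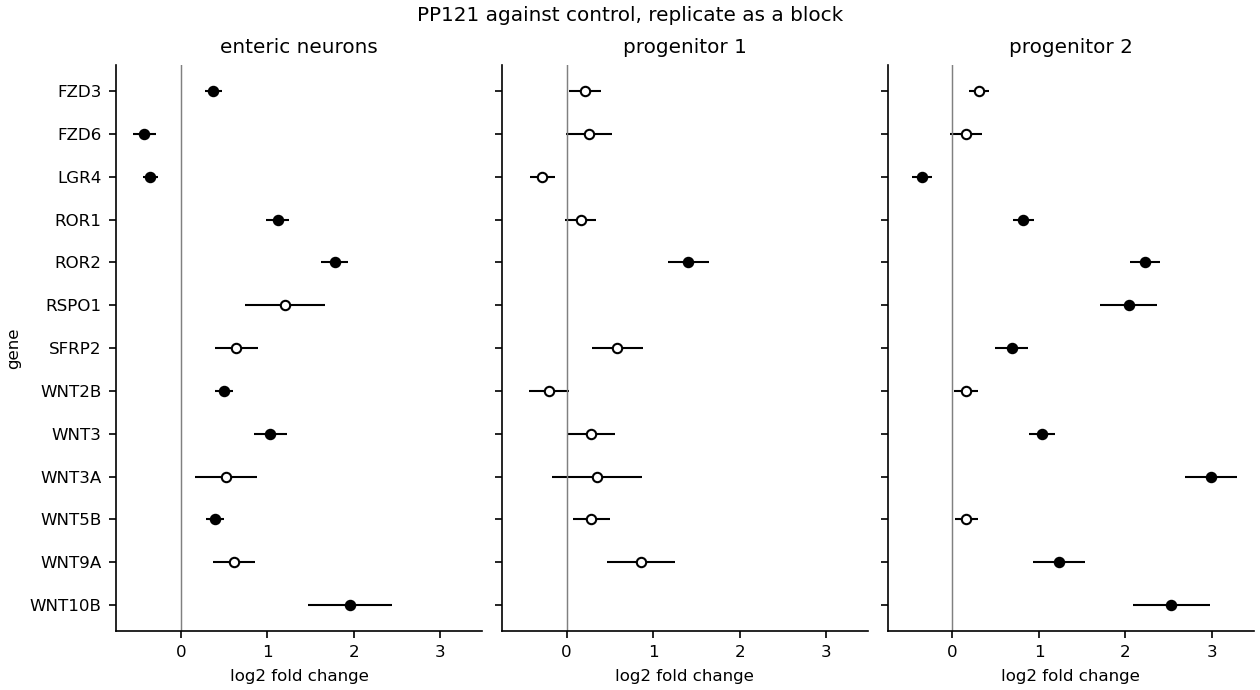
Log2 fold change of PP121 against control for the same 13 members in each class, from edgeR with the replicate block (bars are SE, filled points have an adjusted p under 0.05, a missing point was below the count filter). ROR2 is filled in all 3 classes, from 1.41 to 2.22, and only FZD6 and LGR4 have filled points below 0.

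The block was also combined with joint clusters, with DESeq2 and with the nuclei of highest UMIs left out, which were chosen after seeing the data. ROR1, ROR2, WNT2B and WNT3 in neurons, ROR2 in progenitor 1, and ROR1, ROR2, WNT3 and WNT3A in progenitor 2 passed in each of these 3. FZD3 and WNT5B in neurons passed in none of them.

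Genes of the dorsal midline of the neural tube, where WNT3A, WNT1 and R-spondins are normally made, were read in the same sums. The 6 markers (LMX1A, LMX1B, ZIC1, ZIC2, GDF7 and TTR) all had UMIs in each sum. They summed in progenitor 2 to 66.7 and 79.9 CPM in control and 142 and 174 CPM in PP121, in progenitor 1 to 54.8 and 84.0 CPM and 102 and 124 CPM, and in neurons to 51.3 and 84.7 CPM and 108 and 151 CPM. Both PP121 samples lay above both controls in each class. In day 38 mesenchymal nuclei these markers summed to 124 and 145 CPM in control and PP121, so the sum was not confined to neural classes. LMX1A alone stayed at 0.370 to 2.47 CPM in progenitor 2. Their part in the ligand values was not tested.

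Whether the PP121 effect differed between classes was asked with the class by treatment term of 1 edgeR fit over 12 sums with the sample as a block. Of 42 members tested, 0 passed for progenitor 1 against neurons and 0 for progenitor 2 against neurons, and percent called was 0 over 20664 genes in both. At an unadjusted p under 0.05 there were 3 and 1 members among 1823 and 1237 genes, and DESeq2 called 0 and 0 members among 71 and 9 genes. For ROR1 the effect in progenitor 1 minus that in neurons was -1.05 ± 0.290 (adjusted p = 0.342 by edgeR), for WNT3 -0.84 ± 0.290 (adjusted p = 0.434) and for WNT2B -0.71 ± 0.246 (adjusted p = 0.426). For WNT3A the effect in progenitor 2 minus that in neurons was 2.46 ± 0.560 (adjusted p = 0.469 by edgeR). None of these 4 differences passed, nor did those of LRP5 and WNT7B, also among the smallest p for progenitor 2 against neurons. An effect that passed in 1 class and not in another is therefore not shown to differ between them.

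The second comparison set the samples dated day 38 against those dated day 42. Without a covariate 0 of 42, 0 of 31 and 0 of 39 members passed in neurons, progenitor 1 and progenitor 2, as did 0% of all genes. At an unadjusted p under 0.05 there were 9, 12 and 7 members among 1574, 3106 and 1219 genes, and DESeq2 called 1, 4 and 2 members among 59, 436 and 60 genes. With treatment as a covariate 11 members passed in neurons, 11 in progenitor 1 and 9 in progenitor 2, and 9.49%, 14.6% and 4.81% of all genes did. Of these 9, 11 and 8 were higher on day 38 (5.81%, 8.95% and 2.55% of all genes) and 2, 0 and 1 were lower (3.68%, 5.66% and 2.26%). The days did not overlap for 21, 19 and 16 members, and for 39.0%, 54.5% and 37.6% of all genes. Day 38 lay above for 13, 13 and 12 of these (14.2%, 15.5% and 13.1% of all genes) and below for 8, 6 and 4 (24.8%, 39.0% and 24.5%). The median log2 fold change of the members was 0.21, 0.48 and 0.20, and that of all genes -0.01, -0.03 and -0.00617. With each sample left out of the fit without the covariate, the median of the members ran from 0.075 to 0.28, from 0.27 to 0.65 and from 0.11 to 0.36, lowest without PP121 replicate 2 and highest without PP121 replicate 1 in each class. Values that follow are from edgeR with treatment as a covariate; without it the smallest adjusted p of any member was 0.0917.

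SFRP1, ROR2, SFRP2 and LGR4 were higher on day 38 in all 3 classes, as was WNT7A. SFRP1 stood in neurons at 1.90 and 1.31 CPM on day 42 and at 6.67 and 5.71 CPM on day 38 (control first), and rose by 2.00 ± 0.292 (adjusted p = 2.45e-05). In progenitor 1 it stood at 1.77 and 1.85 CPM on day 42 and 7.53 and 13.5 CPM on day 38, and rose by 2.69 ± 0.462 (adjusted p = 6.64e-07). In progenitor 2 it stood at 1.90 and 2.52 CPM on day 42 and 12.6 and 7.41 CPM on day 38, and rose by 2.20 ± 0.341 (adjusted p = 2.62e-06). The days were apart for SFRP1 in each class. SFRP1 was also highest in mesenchymal nuclei, which numbered 408 and 422 on day 38 and 40 and 33 on day 42, and the mesenchymal markers in neurons moved with the day as given above. Their part in the result was not tested.

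ROR2 was higher on day 38 by 2.10 ± 0.156 in neurons (adjusted p = 5.71e-10), by 1.80 ± 0.234 in progenitor 1 (adjusted p = 9.27e-12) and by 1.51 ± 0.168 in progenitor 2 (adjusted p = 3.24e-10). PP121 replicate 2 was the highest sample in each class, and in progenitor 2 the control sample of day 38 lay below the PP121 sample of day 42. ROR2 is also high in mesenchymal nuclei, and the mesenchymal markers, given above, were higher in both day 38 samples in each class. Their part in the ROR2 values was not tested. ROR1 rose in neurons by 0.50 ± 0.129 (adjusted p = 0.0107), with control replicate 2 below PP121 replicate 1, so the days overlapped. This ROR1 value was -0.19 without PP121 replicate 2 in the fit without the covariate.

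In progenitor 1, 4 of 5 co-receptors, 1 of 6 FZD receptors and 1 of 3 RSPO and LGR genes tested rose, and none fell. LGR4 rose by 1.12 ± 0.145 (adjusted p = 9.51e-12), LRP6 by 0.73 ± 0.154 (adjusted p = 9.79e-05), RYK by 0.71 ± 0.155 (adjusted p = 0.000171), LRP5 by 0.72 ± 0.217 (adjusted p = 0.0109) and FZD3 by 0.55 ± 0.184 (adjusted p = 0.0256). LGR4 stood there at 466 and 315 CPM on day 42 and 735 and 757 CPM on day 38, and LRP6 at 248 and 205 CPM and at 341 and 328 CPM. RYK stood at 226 and 197 CPM on day 42 and at 308 and 311 CPM on day 38. The days were apart for all 3. LEF1 rose in progenitor 1 by 1.31 ± 0.257 (adjusted p = 1.88e-05), from 13.1 and 14.95 CPM on day 42 to 22.3 and 41.7 CPM on day 38. LEF1 is high in mesenchymal nuclei, and the mesenchymal markers in progenitor 1, given above, were also higher in both day 38 samples. Their part in the LEF1 value was not tested. The ligands WNT7A and WNT7B rose in progenitor 1 by 1.00 ± 0.250 (adjusted p = 0.00146) and 0.94 ± 0.249 (adjusted p = 0.00292). For WNT7A, PP121 replicate 2 alone was high, at 46.3 CPM against 15.9 to 19.8 CPM in the other samples.

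In progenitor 2 LGR5 stood at 10.1 and 11.2 CPM on day 42 and 25.5 and 32.9 CPM on day 38, apart, and rose by 1.50 ± 0.193 (adjusted p = 2.26e-08). SFRP4 stood there at 45.1 and 45.4 CPM on day 42 and 24.8 and 28.9 CPM on day 38 and fell by 0.70 ± 0.153 (adjusted p = 0.00135). SFRP4 overlaps EPDR1 on the opposite strand. WNT3A and RSPO1 rose in progenitor 2 by 1.15 ± 0.282 (adjusted p = 0.00527) and 1.22 ± 0.324 (adjusted p = 0.0119). For WNT3A the day difference lay in the PP121 samples, since the controls stood at 2.13 and 2.22 CPM, and without PP121 replicate 2 the value was -1.44 in the fit without the covariate.

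In neurons FZD6 and WNT8A were lower on day 38. FZD6 stood at 40.7 and 27.0 CPM on day 42 and at 21.6 and 17.8 CPM on day 38 and fell by 0.71 ± 0.136 (adjusted p = 0.000703). WNT8A stood at 3.96 and 5.64 CPM on day 42 and at 2.80 and 1.71 CPM on day 38 and fell by 0.98 ± 0.313 (adjusted p = 0.0451). The days were apart for both. LRP5 rose in neurons by 0.61 ± 0.127 (adjusted p = 0.00181), from 20.9 and 28.0 CPM to 32.7 and 38.1 CPM. SFRP2 rose by 1.07 ± 0.245 in neurons (adjusted p = 0.00421), WNT9A by 0.92 ± 0.243 (adjusted p = 0.0140), WNT7A by 0.50 ± 0.159 (adjusted p = 0.0451), LGR4 by 0.32 ± 0.0884 (adjusted p = 0.0180) and RYK by 0.30 ± 0.0929 (adjusted p = 0.0414). When the covariate was combined with the same 3 alternatives, ROR2 and SFRP1 in neurons, LEF1, LGR4, LRP6, ROR2 and RYK in progenitor 1, and LGR5, ROR2 and SFRP1 in progenitor 2 passed in each. LGR4, ROR1, RYK, WNT7A, WNT8A and WNT9A in neurons passed in none of them.

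**Figure D4:**
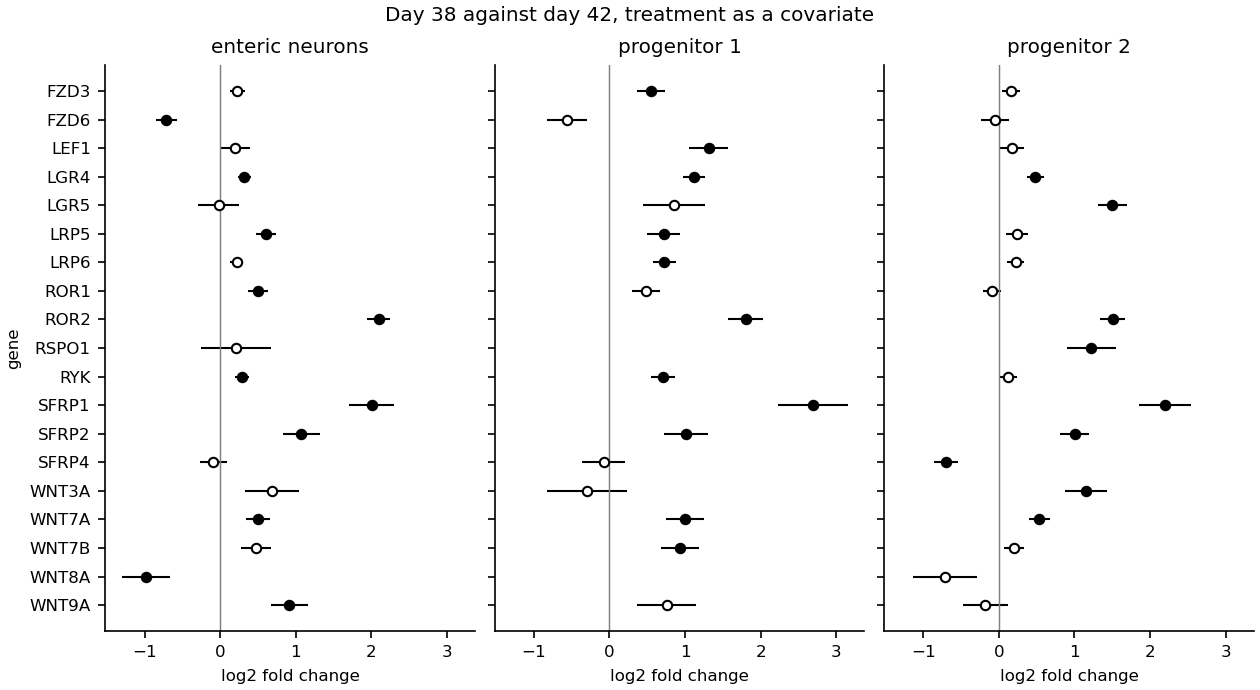
Log2 fold change of day 38 against day 42 for the members past the threshold in any class, from edgeR with treatment as a covariate (bars are SE, filled points have an adjusted p under 0.05). SFRP1 and ROR2 are filled in all 3 classes, at 1.51 or more, and only FZD6, WNT8A and SFRP4 have filled points below 0.

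In the class annotated as unknown, RSPO1, RSPO2 and RSPO3 stood above their levels in neurons, progenitors and mesenchymal nuclei. RSPO3 stood there at 161 and 135 CPM in control replicates 1 and 2 and at 186 and 93.8 CPM in PP121, against at most 3.15 CPM in neurons and progenitors. RSPO2 stood at 63.4 and 130 CPM in control and 60.2 and 131 CPM in PP121, so both day 38 samples were the higher. Few nuclei carried RSPO2: 3 nuclei held 55 of 72 UMIs in control replicate 2 and 80 of 170 in PP121 replicate 2. RSPO1 stood at 37.8 and 52.3 CPM in control and at 62.4 and 76.1 CPM in PP121, which do not overlap. WNT3A stood at 9.89 and 23.4 CPM in control and 27.4 and 57.6 CPM in PP121, and WNT1, a ligand of the dorsal midline, at 4.66 and 5.41 CPM (8 and 3 UMIs) and 9.86 and 13.1 CPM. WNT9A stood at 19.8 and 18.0 CPM in control and at 29.6 and 61.5 CPM in PP121. For WNT1, WNT3A, WNT9A and RSPO1 both PP121 samples lay above both controls, with WNT1 on few UMIs. These were picked from the members, and the share of all genes apart was not computed for this class. In neurons, progenitor 1 and progenitor 2 that share was 45.1%, 28.0% and 40.0%. Elsewhere WNT9A stood at 16.7 to 20.7 CPM in the day 38 mesenchymal nuclei, and WNT3A reached 28.4 CPM in progenitor 2. Neither was particular to the unknown class. No test was run on this class. Its dorsal midline markers summed to 725 and 690 CPM in control and 963 and 1554 CPM in PP121, and its 3 ciliated cell markers (FOXJ1, CFAP299 and CDC20B) to 9.31 and 39.6 CPM and to 430 and 650 CPM, both higher in the PP121 samples. Their part in the ligand values of this class was not tested. In a sum over nuclei, a larger share of nuclei of a kind and more RNA per nucleus cannot be told apart.

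**Figure D5:**
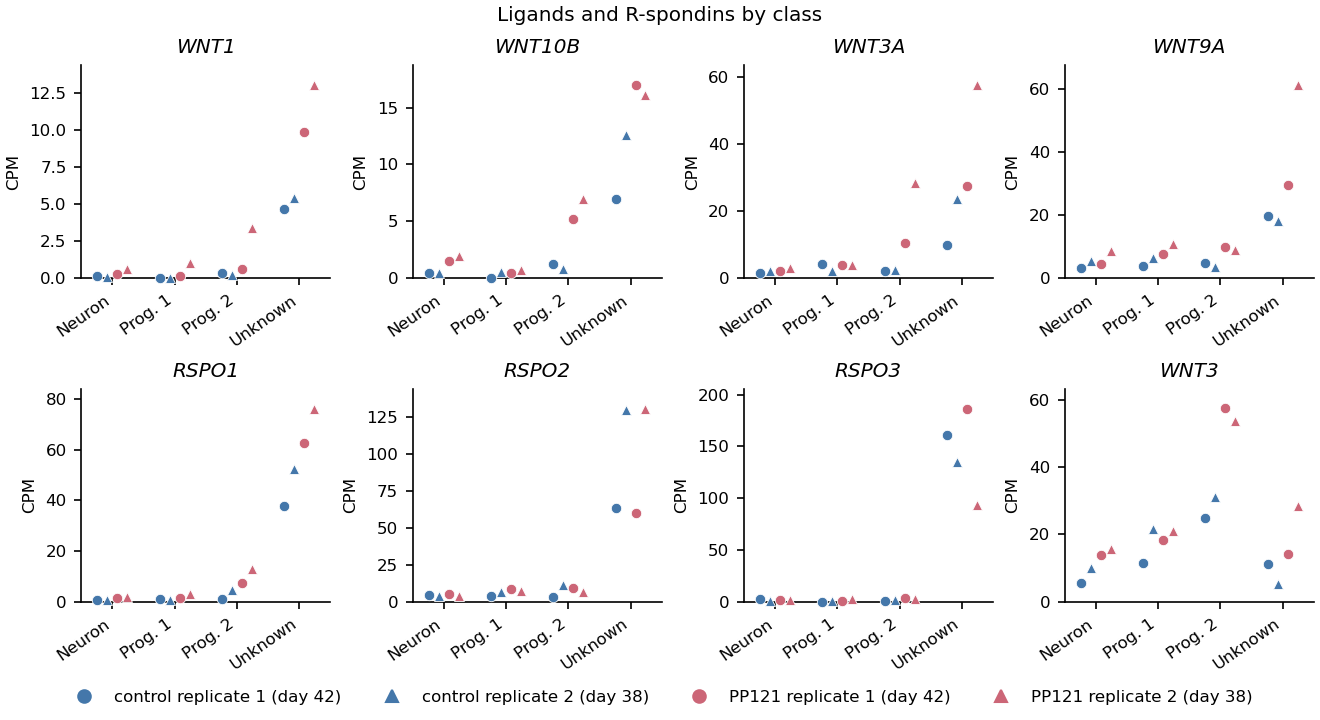
CPM of 8 ligands and R-spondins in neurons, progenitor 1, progenitor 2 and the unknown class (blue control, red PP121, circles replicate 1 of day 42, triangles replicate 2 of day 38, 1 point per sample, linear axes from 0). RSPO1, RSPO2 and RSPO3 reach 37.8 CPM or more in every sample of the unknown class, and WNT3 is higher in progenitor 2 of the PP121 samples than in that class.

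Other genes of the pathway, 67 in 6 lists, were read in the same fits. With the block, 12 of the 63 tested passed for PP121 in neurons (9 higher and 3 lower), 3 of 54 in progenitor 1 and 9 of 58 in progenitor 2 (all higher), against 14.8%, 3.69% and 6.71% of all genes. Their median log2 fold changes were 0.13, -0.01 and 0.04, beside -0.00551, -0.00204 and -0.00445 over all genes. WLS, which carries WNT ligands to the cell surface for secretion, rose in all 3 classes. It stood in progenitor 2 at 92.2 and 114 CPM in control and 183 and 228 CPM in PP121, and rose by 1.02 ± 0.120 (adjusted p = 1.40e-09), in neurons by 1.07 ± 0.155 (adjusted p = 2.16e-05) and in progenitor 1 by 0.69 ± 0.190 (adjusted p = 0.0129), by edgeR with the block. TLE1, a co-repressor that binds TCF and LEF factors, also rose in all 3, by 0.96 ± 0.0983, 0.71 ± 0.200 and 0.62 ± 0.125 in neurons, progenitor 1 and progenitor 2. ZNRF3, a ligase that removes FZD receptors from the surface, rose in progenitor 2 by 0.68 ± 0.116 (adjusted p = 1.91e-05). The glypican GPC3 rose in progenitor 2 by 1.09 ± 0.154, and its relative GPC6 rose in neurons by 0.90 ± 0.100 and in progenitor 1 by 0.95 ± 0.185. For the day, with treatment as a covariate, 12 of 63 (12 higher), 15 of 54 (14 higher and 1 lower) and 10 of 58 (7 higher and 3 lower) passed, against 9.49%, 14.6% and 4.81% of all genes. TCF7L1, a TCF factor that mostly represses, was higher on day 38 by 1.10 ± 0.128, 1.34 ± 0.170 and 1.09 ± 0.118 in neurons, progenitor 1 and progenitor 2. NKD1, a feedback inhibitor, was higher in progenitor 1 by 1.21 ± 0.242, and RNF43, a relative of ZNRF3, fell in progenitor 2 by 1.19 ± 0.300.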

How the data were processed

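Nuclei of 4 samples were read from the deposited matrices, 1 per sample, with a deposited annotation of class and day. The deposited values are UMI counts per gene and nucleus, all whole. The study's methods name kallisto and bustools, and the submitters' processing notes name GRCh38, Cell Ranger and Seurat 4.0.4. Whether intronic reads were counted is not given in the sources used here. The deposited percent of mitochondrial and ribosomal counts was used only to describe nuclei. Of 25306 deposited nuclei the 14812 annotated by the authors were kept, and no doublet caller was run. One annotation column names both controls otherwise than the labels do, and the labels were followed.

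UMIs were summed per sample and class and tested with edgeR 4.0.16 in R 4.3.3 (quasi-likelihood, two-sided, TMM, filterByExpr, Benjamini-Hochberg, threshold 0.05). DESeq2 1.42.0 was an alternative, as were RLE size factors, other count filters, each sample left out, joint clusters (scanpy 1.11.5, 8 clusters) and leaving out the 5% of nuclei with most UMIs. Scripts were tested on simulated neuron sums that held the day difference, with 200 of 21243 genes changed. The fit without a block called 0 of the changed genes. The fit with the block called 196 of them and 15 unchanged genes. The changed genes were drawn from those of high counts and changed alike on both days, a setting that favours the block. It cannot show how the block does for members of few UMIs or with unequal changes between days. The shared day pairs samples of 1 replicate number, and the deviations of such samples from their group's mean correlated across genes at 0.421, 0.435 and 0.275 in neurons, progenitor 1 and progenitor 2. The labels give separate differentiations, so p-values without a block or covariate cover the spread between 2 differentiations of a group. With the block, p-values cover only how far the PP121 difference varied between the 2 days. With the covariate, they cover only how far the day difference varied between control and PP121. Intervals and UMI counts cover counting error only. The text names the 3 members of each role with the highest mean CPM in neurons, progenitors or mesenchymal nuclei. It also names those past the threshold in a comparison and, where none passed, the 3 with the smallest p. WNT5A, WNT1, WNT8B and RSPO3 were given CPM outside this rule. Members, lists and tests were chosen with earlier results of these data known. Gene positions are from GENCODE 29 and promoters from RefSeq (GRCh38.p14), where 35 of the 51 members were matched.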

Additional observations from a re-analysis of the deposited data

How the results depend on the processing

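Without the replicate block or the treatment covariate no member passed in any comparison with RLE size factors or with at least 10 counts in every sum. Members that passed for PP121 in neurons, progenitor 1 and progenitor 2 numbered 9, 1 and 9 with the replicate block. All genes called there were 3152, 593 and 1267 of 21243, 16083 and 18885. Members numbered 1, 1 and 8 with no count filter, among 69, 81 and 768 of 31648, 28981 and 30302 genes. With DESeq2 they numbered 1, 0 and 3, among 87, 1 and 96 genes. For the day members numbered 11, 11 and 9 with treatment as a covariate, among 2015, 2350 and 908 genes. With no filter they numbered 2, 9 and 6, among 158, 1261 and 415 genes. With DESeq2 they numbered 1, 4 and 2, among 59, 436 and 60 genes. Joint clusters gave 4 in progenitor 1, among 292 of 17738 genes. With no filter 1 and 1 members passed in the differences between classes, among 229 and 138 of 32517 genes. Leaving out each sample gave 0 to 3, 0 to 3 and 0 to 10 for PP121, with the highest in each class without PP121 replicate 1 (1402, 349 and 1052 genes of 21374, 16917 and 19462), and 0 to 1, 0 to 9 and 0 to 1 for the day, with the highest without control replicate 2 (271, 999 and 48 genes of 22732, 17275 and 20152), where the group left with 1 sample is assumed to vary like the others. In alternatives chosen after seeing the data, joint clusters, DESeq2 and left-out nuclei of highest UMIs were each combined with the block or the covariate. PP121 gave 8, 4 and 6 members in neurons, 1, 1 and 1 in progenitor 1 and 7, 4 and 7 in progenitor 2. The day gave 5, 2 and 5, then 13, 5 and 11, then 7, 3 and 9 in the same classes. With the block these fits called 1232, 633 and 1813 genes in neurons and 218, 73 and 549 in progenitor 1. In progenitor 2 they called 615, 219 and 880. With the covariate they called 1228, 453 and 955, then 2177, 652 and 2098, then 542, 150 and 659. Each tested 15857 to 21243 genes. Of 846 values of named members under alternatives, 620 kept their direction and side of the threshold, 220 passed only under the alternative and 6 changed sign, each with 1 sample left out. With each sample left out in turn, FZD6 for PP121 in neurons ran from -0.78 to 0.069 (positive without control replicate 1), AXIN2 there from -0.081 to 0.45 (negative without PP121 replicate 2), LEF1 there from -0.27 to 0.049 (positive without PP121 replicate 1) and LEF1 in progenitor 1 from -0.37 to 1.27 (negative without PP121 replicate 2). For the day, ROR1 in neurons ran from -0.19 to 1.13 and WNT3A in progenitor 2 from -1.44 to 2.94, both negative without PP121 replicate 2. The cause was not tested.

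With 2 samples a group and at most 2301 nuclei in a sum, members of few UMIs such as WNT10A, DKK1 and WNT1 could not be compared at this depth, and a member that did not pass is not shown to be unchanged. Calls rest on the paired fit with 1 residual degree of freedom.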
